A study of Mus musculus with 2 samples.

Results

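The inflammasome and interleukin 1 genes described here are 10 mouse genes, chosen by name for their place in 1 pathway: the sensors Nlrp3, Nlrc4 and Aim2, the adaptor Pycard, the caspases Casp1 and Casp4, the pore former Gsdmd, the cytokines Il1b and Il18, and the receptor Il1r1. They were found by gene ID in the deposited gene tables, and all 10 of 10 were present among 21461 nuclear protein-coding genes. The study sequenced total RNA from cells labelled megakaryocyte, the bone marrow cell that sheds platelets, in 2 libraries that form 1 group. The mice were adult C57BL/6J males, 5 to 6 weeks old, and no treatment or altered allele is named. Each library was made from 100 ng of RNA after removal of ribosomal RNA. The libraries carry the labels biological replicate 1 and 2 but name the same donor, and nothing else says that they came from separate animals. With no second group, the values are levels within each library and differences between the libraries, and the p-values compare these libraries with each other, not conditions.

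Inflammasomes are protein assemblies in the cytosol that form when a sensor meets a sign of infection or damage. The sensor recruits the adaptor ASC, encoded by Pycard, which gathers pro-caspase 1 so that it can cleave itself. Active caspase 1 then cleaves the precursors of interleukin 1 beta and interleukin 18, and caspase 1 or caspase 11 cleaves gasdermin D, whose fragments open pores in the plasma membrane. The pathway is best known in monocytes, macrophages and neutrophils, where the cytokine precursors often have to be transcribed before an inflammasome can release them.

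The expected counts of library 1 added up to 42703213 and those of library 2 to 50532821, and 1 TPM, the deposited length-scaled unit of transcript abundance, at an effective length of 1000 bases was worth 100.2 and 113.9 counts. The marker genes went against the label. Of 15 megakaryocyte markers, 12 were under 1 TPM in both libraries and Gp5 and Gp6 had 0 counts, with a summed level of 10.9 TPM in library 1 and 12.8 TPM in library 2. None of 15 neutrophil markers was under 1 TPM in either library, and they summed to 14810 and 13997 TPM, led by S100a8. The same held for 11 monocyte markers, which summed to 8106 and 10467 TPM, led by Lyz2. The libraries are therefore called library 1 and library 2, and no cell type is given to the levels below. In bulk RNA, fewer cells of a type and less RNA per cell cannot be told apart.

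Of the 10 genes, 9 reached 1 TPM in both libraries, where 42.4% of all nuclear protein-coding genes did, and Il1r1 was the exception. At 5 TPM or more in both libraries there were 6, namely Pycard, Casp1, Aim2, Gsdmd, Nlrp3 and Casp4, against 26.6% of all genes. Together the 10 genes held 129 TPM of library 1 and 156 TPM of library 2, from 18634 and 25698 counts. By role, the 3 sensors summed to 40.7 and 40.9 TPM, the adaptor and caspases to 61.2 and 82.7 TPM, and the cytokines to 7.67 and 6.24 TPM. The sum was thus larger in library 2 for the adaptor and caspases and smaller for the cytokines. Only 24.0% and 26.8% of all TPM lay in nuclear protein-coding genes, so levels on a scale of those genes alone would be about 4 times as large, with the order within a library unchanged. TPM compared between the libraries shifts on that scale toward library 1. For example, Aim2 would stand at 113 TPM in library 1 and 94.3 TPM in library 2, and Il1b at 17.4 and 16.1 TPM.

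**Figure D1:**
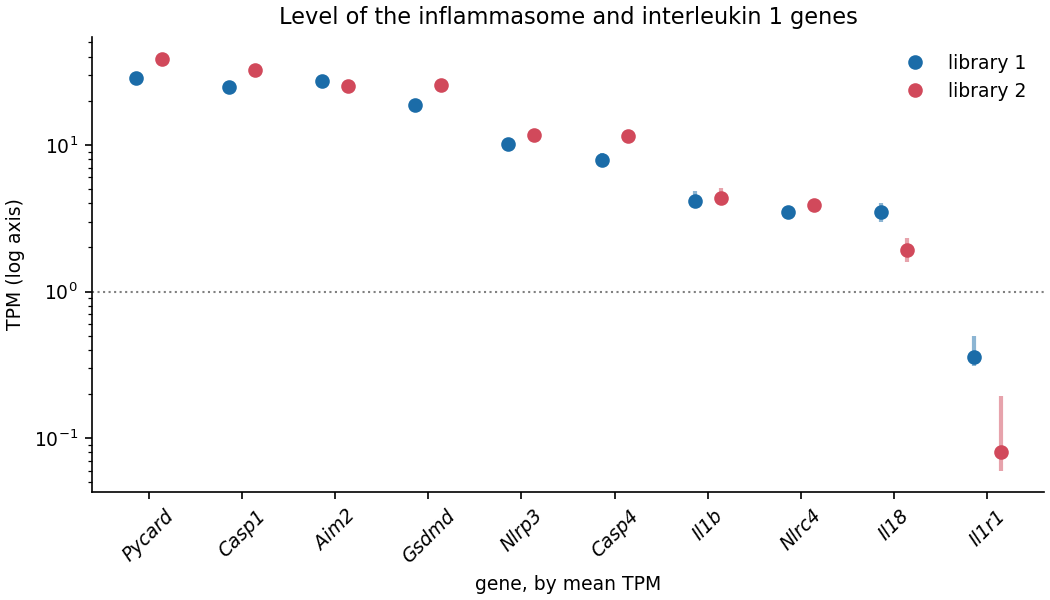
Level of each gene in TPM (log axis) in library 1 (blue) and library 2 (red), ordered by mean TPM. Bars are the deposited interval for TPM, whose level is not stated, and the dotted line is 1 TPM. Pycard is highest at 28.6 and 38.8 TPM, and both values of Il1r1 lie under the line.

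The libraries were compared gene by gene with a two-sided exact binomial test on rounded expected counts, given scaled library sizes, with Benjamini-Hochberg adjustment over 12081 genes. The test holds counting error alone, and it called 65.6% of all tested genes, 33.1% higher in library 2 and 32.6% higher in library 1. It called 7 of the 10 genes. Of these, Pycard, Casp1, Casp4, Gsdmd and Nlrp3 were higher in library 2, and Il18 and Il1r1 were higher in library 1. Aim2, Il1b and Nlrc4 were not called. The share of 7 in 10 is near the background, so the number of calls is not a result about these genes, and the sizes carry the description.

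Sizes were set against the spread of all tested genes, whose middle 50% of log2 ratios (library 2 over library 1) lay between -0.22 and 0.19. The median absolute log2 ratio was 0.33 over the 10 genes and 0.20 over all tested genes, and the median signed log2 ratio was 0.13 and 0.00. When a biological coefficient of variation (BCV) of 0.1 was assumed in the exact test of edgeR, 12.9% of all genes were called, 5.65% higher in library 2 and 7.23% higher in library 1, and only Il18 and Il1r1 remained among the 10 genes. At the common BCV of 0.242 estimated from the libraries themselves, 4.02% of genes were called and only Il1r1 remained. A called ratio of at least 2-fold was found in 9.63% of all genes, 4.39% higher in library 2 and 5.24% higher in library 1, and again in Il1r1 alone among the 10.

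**Figure D2:**
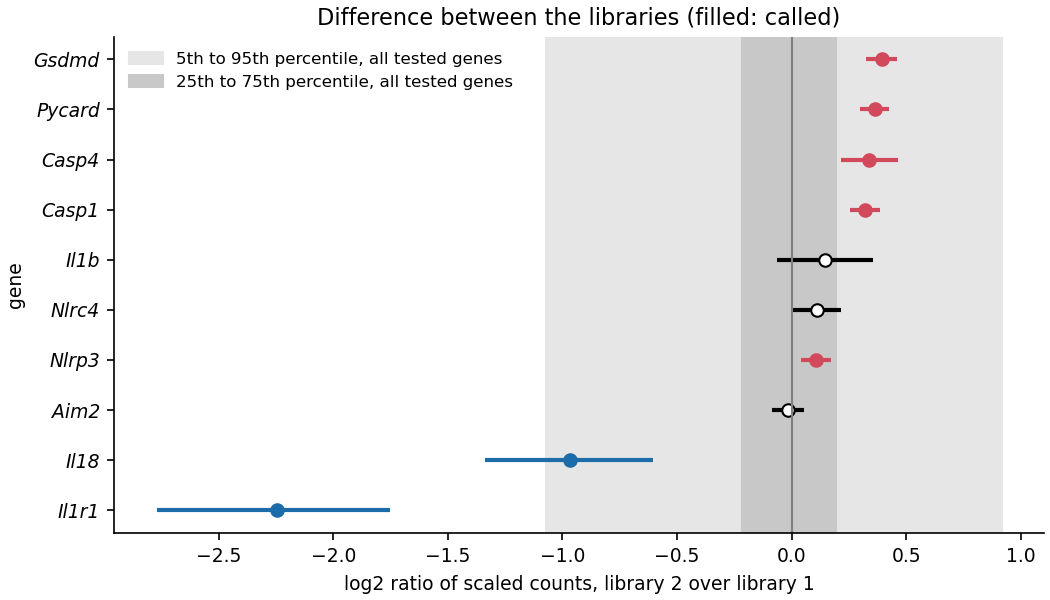
Log2 ratio of scaled counts, library 2 over library 1, for each gene, with the 95% exact interval for counting error as a bar. Filled points passed the exact binomial test after adjustment, in red where higher in library 2 and in blue where higher in library 1, and grey bands hold the middle 50% and 90% of all tested genes. Il1r1 at -2.25 lies outside both bands.

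Among the sensors, Aim2 was the most abundant. Aim2 binds double-stranded DNA in the cytosol and lies at chr1:173350879-173466040 on the plus strand (all coordinates are mm10). Its values were 27.1 TPM in library 1 and 25.3 TPM in library 2, a mean of 26.2 ± 1.28 (SD, n = 2), from 3127 and 3673 counts. The libraries lay close together, and Aim2 was above 92.8% of all nuclear protein-coding genes by mean TPM. Its log2 ratio of -0.01, with a 95% exact interval of -0.08 to 0.06, was not called (exact binomial test, adjusted p = 0.741).

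Aim2 RNA was spread over several annotated transcripts. The coding transcript Aim2-204 held 41.7% of the TPM of the gene in library 1 and 43.0% in library 2. The short noncoding transcript Aim2-206 held 27.0% and 24.9%, which came from only 120 and 109 counts because a short transcript turns few counts into many TPM. Aim2-202, which starts far upstream of the others, held 9.14% and 15.0%, and the incomplete model Aim2-205 held 16.6% and 8.19%. Protein-coding transcripts together made up 67.4% and 66.2% of the TPM of Aim2, and 95.4% and 96.1% of its counts. The long Aim2-202 model overlaps the antisense gene Cadm3, which had 188 and 37 counts, and the use of strand in counting was not given in the sources used here.

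Nlrp3, the sensor of ion loss and membrane damage, lies at chr11:59541568-59566956 on the plus strand. Library 1 had 10.2 TPM and library 2 had 11.8 TPM (11.0 ± 1.11, SD, n = 2), from 3275 and 4179 counts. This was less than Aim2 in both libraries, by 2.66 times in library 1 and 2.15 times in library 2. Nlrp3 was called higher in library 2 with a small log2 ratio of 0.11 (0.04 to 0.17, adjusted p = 0.00338 by the exact binomial test), and 71.5% of all tested genes differed by at least as much. The full-length Nlrp3-201 held 76.6% and 78.5% of its TPM, with 15.5% and 17.8% in the incomplete model Nlrp3-203.

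Nlrc4 assembles when NAIP proteins bind bacterial flagellin or parts of a type III secretion system, and lies at chr17:74425438-74459142 on the minus strand. It was the least abundant of the sensors, at 3.47 TPM in library 1 and 3.91 TPM in library 2 (3.69 ± 0.311, SD, n = 2). Its counts were larger than this level would give in a short gene, 1255 and 1606, because its single transcript is long. The log2 ratio of 0.11 (0.00 to 0.22) was not called (exact binomial test, adjusted p = 0.0663).

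Of the 4 NAIP partners of Nlrc4, 3 were more abundant than Nlrc4 itself. Naip2, which recognises the inner rod of the secretion system, stood at 23.5 and 24.4 TPM, 6.77 and 6.23 times the level of Nlrc4. Naip5 stood at 11.3 and 11.7 TPM and Naip6 at 8.62 and 8.64 TPM, both flagellin receptors, while Naip1 was at 0.36 and 0.27 TPM. The Naip genes are near-identical copies in 1 cluster on chromosome 13, and the reads they share were divided by the authors' estimate, so none of these levels is certain for a given copy.

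Of 14 other sensors and relatives, 10 reached 1 TPM in both libraries. Mefv, which encodes the sensor pyrin, stood at 18.9 and 22.0 TPM and was called higher in library 2 with a log2 ratio of 0.14. In all, 1 of the 13 tested was called higher in library 2, 8 were called higher in library 1 and 4 were not called. The number of calls was near the 65.6% over all tested genes, of which 33.1% were higher in library 2 and 32.6% in library 1. Most calls of the list were thus higher in library 1, and its median log2 ratio was -0.12. Where the mean count was at least 100, the largest called differences were in Nlrp1b (2.43 and 1.51 TPM, log2 ratio -0.72), Nod2 (0.99 and 0.69 TPM, -0.57) and Naip1 (-0.46). The lower-count Nlrc3, chosen after its values were seen, had a larger log2 ratio of -0.94 (0.21 and 0.13 TPM, from 94 and 58 counts). Nlrp1b, which like Naip1 has near-identical neighbours, remained called by the exact test of edgeR at a BCV of 0.1 (adjusted p = 0.0114), as did Nlrc3 (adjusted p = 0.0301), and Nod2 and Naip1 did not. Nlrp6, a sensor best known from gut epithelium, had no count in either library, and the limit set by 3 counts was 0.0108 and 0.00955 TPM. The deposited upper bounds for Nlrp6 were higher, at 0.104 TPM in library 1 and 0.0952 TPM in library 2.

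The adaptor Pycard was the most abundant of the 10 genes in both libraries. It lies at chr7:127989708-127993867 on the minus strand and has 1 annotated transcript. Library 1 had 28.6 TPM and library 2 had 38.8 TPM (33.7 ± 7.18, SD, n = 2), from 3388 and 5167 counts. Library 2 was higher, and by mean TPM Pycard was above 94.5% of all nuclear protein-coding genes. The log2 ratio was 0.36 (0.30 to 0.43, adjusted p = 5.95e-29 by the exact binomial test), a size that 30.8% of all tested genes reached.

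The stretch upstream of Pycard is shown because it was the only member window with matches to the binding words of both C/EBP and PU.1, transcription factors of myeloid cells. The 250 bases before the RefSeq start (GRCm38.p6, chr7:127993868-127994117, minus strand) read 5′ to 3′, with capitals marking the C/EBP match at -142 to -135 and the PU.1 match at -44 to -37 from the start, both on the opposite strand:
Pycard: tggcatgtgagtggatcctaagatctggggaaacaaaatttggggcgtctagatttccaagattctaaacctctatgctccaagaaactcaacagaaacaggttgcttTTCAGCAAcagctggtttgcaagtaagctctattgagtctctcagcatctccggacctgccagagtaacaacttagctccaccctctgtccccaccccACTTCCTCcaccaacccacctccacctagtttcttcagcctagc
A match is a run of letters, and binding was not measured.

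Casp1 encodes the protease that the inflammasome activates, and lies at chr9:5298517-5307265 on the plus strand. It stood at 24.7 TPM in library 1 and 32.5 TPM in library 2 (28.6 ± 5.50, SD, n = 2), from 3152 and 4668 counts in 1 annotated transcript. Library 2 was again the higher, with a log2 ratio of 0.32 (0.25 to 0.39, adjusted p = 4.99e-21 by the exact binomial test). The ratio of Pycard to Casp1 was 1.16 in library 1 and 1.19 in library 2.

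Casp4, the mouse gene of caspase 11, which binds bacterial lipopolysaccharide directly, is the neighbour of Casp1 with 1562 bases between them, at chr9:5308828-5336783 on the plus strand. Library 1 had 7.85 TPM and library 2 had 11.5 TPM (9.66 ± 2.56, SD, n = 2), from 870 and 1306 counts. It was called higher in library 2, as Casp1 was, with a log2 ratio of 0.34 (0.21 to 0.47, adjusted p = 2.32e-07 by the exact binomial test). Casp1 was 3.15 times as abundant as Casp4 in library 1 and 2.83 times in library 2.

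Casp4 had 7 annotated transcripts with reads in a mixture. The coding Casp4-201 held 79.3% of the TPM of the gene in library 1 and 64.0% in library 2. The remainder lay in different models in the libraries: the retained-intron model Casp4-205 held 12.1% in library 1 and 0 in library 2, and the incomplete coding model Casp4-206 held 0 and 14.8%. These shares rest on 14 counts and 25.4 counts. Over all coding transcripts the share of TPM was 79.3% and 78.8%. As a share of counts, coding transcripts held 86.8% and 78.8%, so the closeness on the TPM scale was not seen in counts. Casp4-201 alone held 86.8% of counts (95% exact Clopper-Pearson interval 84.3% to 89.0%) in library 1 and 76.8% (74.4% to 79.1%) in library 2.

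Of 8 other caspases, 6 reached 1 TPM in both libraries, and Casp8 exceeded Casp1. Casp8, which starts death-receptor apoptosis and can also cleave gasdermin D, stood at 35.7 and 46.8 TPM and was called higher in library 2 (log2 ratio 0.34). Casp2, a caspase of the response to DNA damage, stood at 12.2 and 14.7 TPM. Of the 7 tested, Casp2, Casp6 (log2 ratio 0.45) and Casp8 were called higher in library 2. Another 2 were called higher in library 1 and 2 were not called, beside 65.6% called over all tested genes. The median log2 ratio of the 7 was 0.11, and Casp14, a caspase of the skin, had 0 counts.

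Gsdmd encodes the pore former gasdermin D and lies at chr15:75862327-75867408 on the plus strand, with 1 annotated transcript. It was present at 18.7 TPM in library 1 and 25.8 TPM in library 2 (22.2 ± 5.03, SD, n = 2), from 2901 and 4522 counts. Library 2 was higher, with a log2 ratio of 0.39 (0.33 to 0.46, adjusted p = 1.33e-29 by the exact binomial test). This was the largest log2 ratio in that direction among the 10 genes, and 28.2% of all tested genes differed by at least as much.

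Gsdmd, Pycard, Casp4 and Casp1 thus had log2 ratios within a narrow range, 0.32 to 0.39, and for each the 95% interval lay above the middle 50% of all tested genes. None of these 4 was called by the exact test of edgeR at a BCV of 0.1, where their adjusted p ran from 0.253 (Gsdmd) to 0.408 (Casp1). Lyz2, the leading monocyte marker, had a log2 ratio of 0.35 in the same direction. Of 11 monocyte markers, 8 were called higher in library 2 and 3 higher in library 1, where 33.1% and 32.6% of all tested genes were, with a median log2 ratio of 0.14 and none at 0 counts. By the exact test of edgeR at a BCV of 0.1, 1 monocyte marker was called, where 12.9% of all tested genes were. Of 15 neutrophil markers, 1 was called higher in library 2 and 11 higher in library 1, with a median of -0.17. The part of the cell mixture in the higher levels of these 4 genes was not tested.

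Ninj1, whose protein breaks the plasma membrane after pores have formed, was also higher in library 2. It stood at 8.29 TPM in library 1 and 13.3 TPM in library 2, with a log2 ratio of 0.73 that was called by the exact binomial test (adjusted p = 7.31e-28) and by the exact test of edgeR at a BCV of 0.1 (adjusted p = 0.00897). Gsdme, a gasdermin cleaved during apoptosis, was at 7.57 and 4.95 TPM and was called higher in library 1 with a log2 ratio of -0.29. On the TPM scale the ratio of Gsdmd to Gsdme was 2.46 in library 1 and 5.20 in library 2. Part of that difference is in length scaling, since Gsdme had 1093 and 1062 counts at effective lengths of 1442 and 1883 bases. Of the 9 genes in this list, 6 had 0 counts in both libraries (Gsdma, Gsdma2, Gsdma3, Gsdmc, Gsdmc2 and Gsdmc3), and Gsdmc4 had 0 and 11 counts. Those are sets of near-identical copies, so each copy's count is uncertain. The limit of 3 counts that a count of 0 allows lay between 0.0120 and 0.0454 TPM in library 1 for the 6 genes with 0 counts. The deposited upper bound for Gsdma2 was far higher, at 1.16 TPM in library 1 and 1.27 TPM in library 2, so a level near 1 TPM is not excluded. For Gsdmc the deposited upper bound in library 1 was 0.0762 TPM.

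The cytokine genes were less abundant than the genes that process their products. Il1b, the precursor of interleukin 1 beta, lies at chr2:129364570-129371139 on the minus strand. It stood at 4.17 TPM in library 1 and 4.32 TPM in library 2 (4.25 ± 0.106, SD, n = 2), from 330 and 433 counts. The libraries differed by a log2 ratio of 0.15 (-0.06 to 0.36), which was not called (exact binomial test, adjusted p = 0.230). Pycard was 6.86 times as abundant as Il1b in library 1 and 8.98 times in library 2. The promoter stretch of Il1b is shown because both of its transcripts with reads share a start just downstream of a TATA word (GRCm38.p6, chr2:129371140-129371389, minus strand, 250 bases before the RefSeq start). Capitals mark TATAAA at -31 to -26:
Il1b: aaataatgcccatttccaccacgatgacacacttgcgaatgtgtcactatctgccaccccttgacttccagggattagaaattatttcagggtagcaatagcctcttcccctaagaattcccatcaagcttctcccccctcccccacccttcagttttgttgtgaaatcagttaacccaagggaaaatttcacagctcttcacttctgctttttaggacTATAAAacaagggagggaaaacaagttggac

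A large part of Il1b RNA was assigned to a transcript that keeps an intron. The coding transcript Il1b-201 had 230 counts in library 1 and 352 in library 2, and Il1b-203, which retains intron 2, had 100 and 81. On the TPM scale Il1b-203, the shorter model, held 51.4% and 36.3% of the gene. As a share of counts it held 30.3% (95% exact Clopper-Pearson interval 25.4% to 35.6%) in library 1 and 18.7% (15.1% to 22.7%) in library 2. The intervals, which cover counting error only, did not overlap, and the share was lower in library 2. With coding transcripts alone, Il1b stood at 2.03 and 2.76 TPM.

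The junction that separates these transcripts is shown from the last 20 bases of exon 2 onward. In Il1b-201 the capitals are the start of exon 3 (chr2:129369703-129369751), and in Il1b-203 they are the start of the retained intron 2 (chr2:129369752-129370283, 532 bases, minus strand):
Il1b-201: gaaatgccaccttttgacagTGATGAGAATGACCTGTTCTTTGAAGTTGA
Il1b-203: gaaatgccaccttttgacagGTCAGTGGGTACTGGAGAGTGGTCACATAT
The antisense gene Il1bos, which overlaps Il1b, had 33 and 38 counts.

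Il18, the precursor of interleukin 18, lies at chr9:50554827-50581840 on the plus strand. It stood at 3.50 TPM in library 1 and 1.92 TPM in library 2 (2.71 ± 1.12, SD, n = 2), from 168 and 102 counts. Library 1 was the higher, the opposite of the caspases, with a log2 ratio of -0.97 (-1.34 to -0.60, adjusted p = 2.18e-07 by the exact binomial test). The call remained in the exact test of edgeR at a BCV of 0.1 (adjusted p = 0.00594) and was lost at the common BCV (adjusted p = 0.762). Only 10.4% of all tested genes differed by at least as much. The antisense gene Bco2, which overlaps Il18, had 40 and 94 counts.

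Il18 has 2 transcripts in the deposited tables, of 702 bases each, that differ only in a 12-base second exon and there in 7 bases. They are shown because the split of the reads between them rests on those bases. Capitals mark exon 2, which lies at chr9:50577537-50577548 in Il18-201 and at chr9:50576694-50576705 in Il18-202, and the flanks are from exons 1 and 3:
Il18-201: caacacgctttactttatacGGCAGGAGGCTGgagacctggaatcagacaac
Il18-202: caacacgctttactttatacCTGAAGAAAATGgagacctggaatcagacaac
In library 1 the authors' estimate put 84 counts on each, an even split, and in library 2 it put 0 on Il18-201 and 102 on Il18-202. The deposited posterior means were 40.1% and 12.9% for Il18-201, so how Il18 divides between the exons is uncertain in both libraries. Both models start 20573 bases downstream of the RefSeq start of Il18.

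Of 8 other ligands of the interleukin 1 family, 2 reached 1 TPM in both libraries and both exceeded Il1b. Il1rn, the antagonist that blocks the interleukin 1 receptor, stood at 8.89 and 9.85 TPM, 2.13 and 2.28 times the level of Il1b. Il36g, an agonist of the interleukin 36 receptor, stood at 9.52 and 10.5 TPM. Neither was called different between the libraries, with log2 ratios of -0.05 for Il1rn and 0.07 for Il36g. Il1a, which signals through the same receptor as Il1b, had 0 and 7 counts, and Il36b had 0 and 2. Il33, Il36a, Il36rn and Il1f10 had 0 counts in both libraries, and the limit of 3 counts was highest for Il1f10, at 0.0951 TPM in library 1. The deposited upper bounds in library 1 were above that for Il33 (0.339 TPM), Il36rn (0.283 TPM) and Il36a (0.133 TPM).

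Il1r1 encodes the signalling receptor of interleukin 1 and was the lowest of the 10 genes. It lies at chr1:40225080-40317257 on the plus strand. Library 1 had 0.36 TPM and library 2 had 0.08 TPM (0.22 ± 0.198, SD, n = 2), from 168 and 42 counts. Both values are under 1 TPM, and by mean TPM Il1r1 was above 49.0% of all nuclear protein-coding genes. It was 4.74 times as high in library 1 on the scale of scaled counts, a log2 ratio of -2.25 (-2.77 to -1.75, adjusted p = 6.25e-23 by the exact binomial test). Il1r1 was the only member past a 2-fold ratio and the only member still called by the exact test of edgeR at the common BCV (adjusted p = 0.00329), and 3.92% of all tested genes differed by at least as much.

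Erythroid markers and T and NK cell markers were higher in library 1, the direction of Il1r1 and Il18. Of 10 erythroid markers, 9 were called higher in library 1, where 32.6% of all tested genes were, and 0 in library 2, none was at 0 counts, and they summed to 117 TPM in library 1 against 55.9 TPM in library 2. Of 9 T and NK cell markers, 8 were called higher in library 1 and 0 in library 2, again with none at 0 counts, and they summed to 35.7 and 20.2 TPM. The sums of the other lists apart from the neutrophil markers were not higher in library 1, for example 29.4 and 34.4 TPM for macrophage markers. Endothelial and stromal markers summed to 10.3 and 10.8 TPM, which includes Col1a1 at 0.13 and 1.31 TPM from 72 and 65 counts. By scaled counts that list had a median log2 ratio of -0.35, the direction of Il1r1. Of its 6 tested markers, 1 was called higher in library 1 and 0 in library 2. The part of any of these cell types in the levels of Il1r1 and Il18 was not tested.

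Il1r1 has annotated starts 41506 bases apart, and all of its counts in both libraries were assigned to Il1r1-202, which uses the downstream start. Il1r1-201, which uses the upstream start, had 0 counts, although the deposited posterior mean left Il1r1-202 with 81.7% and 52.0%, so the split is weakly held at these counts. The 250 bases before each start are shown to set the window of the transcript with counts beside the window of the transcript without (GRCm38.p6, plus strand, chr1:40224830-40225079 upstream and chr1:40266336-40266585 downstream). Capitals mark a C/EBP match at -133 to -126 of the upstream start, and the downstream window held no match to the words searched:
Il1r1 upstream start: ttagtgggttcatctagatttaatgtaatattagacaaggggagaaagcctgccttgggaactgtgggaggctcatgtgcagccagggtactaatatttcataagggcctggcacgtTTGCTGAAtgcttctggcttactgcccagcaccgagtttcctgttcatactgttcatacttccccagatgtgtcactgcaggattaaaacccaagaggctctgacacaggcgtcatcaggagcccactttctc
Il1r1 downstream start: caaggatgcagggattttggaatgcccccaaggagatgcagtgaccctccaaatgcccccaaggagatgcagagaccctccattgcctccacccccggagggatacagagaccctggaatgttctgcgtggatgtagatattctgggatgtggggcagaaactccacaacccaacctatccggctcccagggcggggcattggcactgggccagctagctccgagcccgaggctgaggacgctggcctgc

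Of the 10 other receptors and decoys of the family, 8 were more abundant than Il1r1 in both libraries. Il1r2, the decoy receptor that binds interleukin 1 without signalling, stood at 6.69 and 5.27 TPM, 18.6 and 65.9 times the level of Il1r1. The shared coreceptor Il1rap stood at 2.56 and 2.43 TPM. For interleukin 18, the receptor subunits Il18rap (10.7 and 8.39 TPM, log2 ratio -0.30) and Il18r1 (3.80 and 3.15 TPM, -0.29) and the soluble decoy Il18bp (0.95 and 0.71 TPM, -0.50) were called higher in library 1, the direction of Il18. Il1r2 and Il1rap were not called (log2 ratios -0.09 and -0.10). Of the list, 7 reached 1 TPM in both libraries and 8 were tested. Of those, 1 was called higher in library 2, 3 were called higher in library 1 and 4 were not called. Over all tested genes 65.6% were called, 33.1% higher in library 2 and 32.6% higher in library 1. Their median log2 ratio was -0.14, and the mostly neuronal Il1rapl1 and Il1rapl2 had 0 counts.

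**Figure D3:**
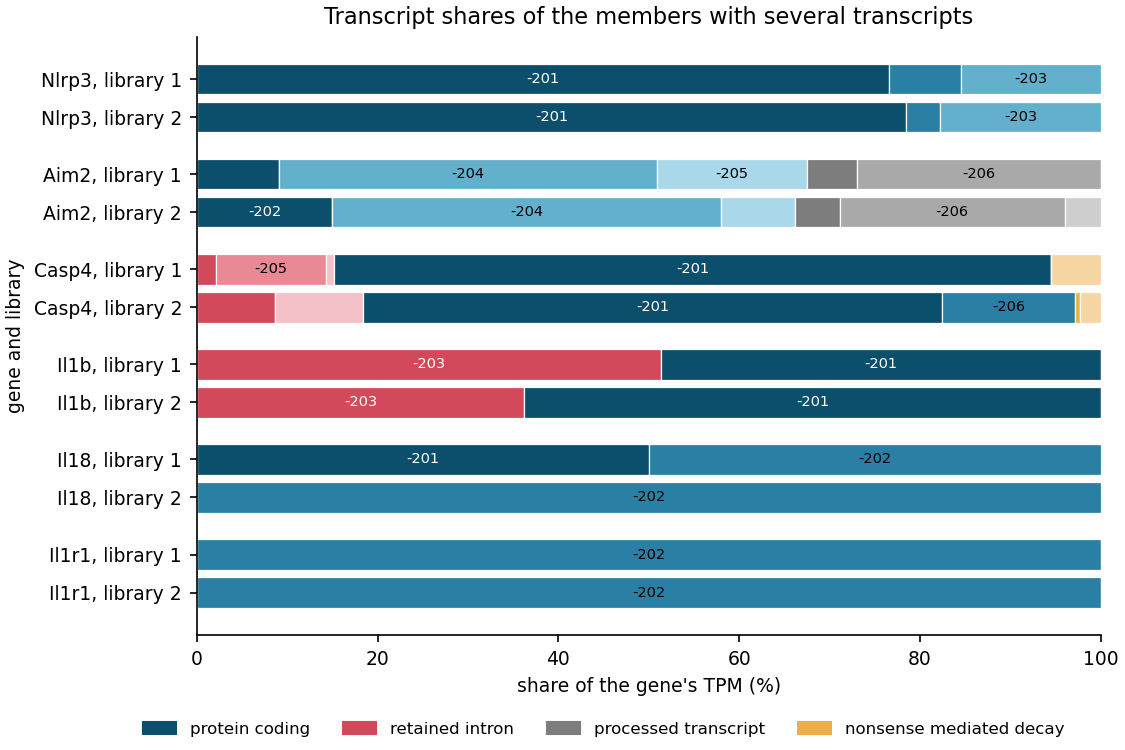
Share of the TPM of a gene (%) held by each annotated transcript in each library, for the 6 genes with several transcripts; colour gives the transcript type, shades separate transcripts, and the number is the end of the transcript name. Il1b-203 (red) holds 51.4% in library 1 and 36.3% in library 2, and Il18-201 holds 50% only in library 1.

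The members fell into steps by level. From the top, Pycard, Casp1, Aim2 and Gsdmd had ranges over the libraries that overlapped between neighbours. Gsdmd lay above Nlrp3 in every library, by 1.83 times in library 1 and 2.19 times in library 2. Nlrp3 and Casp4 overlapped, Casp4 lay above Il1b, and Il1b lay above Nlrc4 by 1.20 and 1.10 times. Nlrc4 and Il18 overlapped, and Il18 lay above Il1r1 by 9.72 and 24.0 times. In all, 4 of 9 neighbouring pairs were set apart by their libraries. When the noncoding transcripts were left out, 5 of the pairs were apart. Aim2 then lay below Gsdmd in both libraries, at 18.3 and 16.7 TPM, and Il1b lay below Nlrc4 in both and below Il18 by mean only, with overlapping ranges. No gene was named for a pattern like that of a member, since 2 libraries of 1 group give no pattern across samples.

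Genes that regulate inflammasomes were abundant in the same libraries. All 14 that were matched had counts, and 13 reached 1 TPM in both libraries. Txnip, an inhibitor of thioredoxin that can bind Nlrp3, led at 84.3 and 96.4 TPM, followed by Serpinb1a, an inhibitor of neutrophil proteases that restrains caspase 1, at 50.7 and 51.1 TPM. Card9, an adaptor of fungal receptors, stood at 42.0 and 38.8 TPM, and Cflar, the catalytically inactive relative of caspase 8, at 32.6 and 32.1 TPM. Of the 14, 3 were called higher in library 2, 6 were called higher in library 1 and 5 were not called. That number of calls is near the 65.6% over all tested genes, of which 33.1% were higher in library 2 and 32.6% in library 1. The median log2 ratio of the list was -0.04. The largest called differences were in Irf2 (9.81 and 5.95 TPM, log2 ratio -0.79), a transcription factor known to drive Gsdmd, in Fadd, the adaptor of caspase 8 (0.72 and 1.15 TPM, 0.60), and in the necroptosis kinase Ripk3 (5.67 and 4.38 TPM, -0.45). Irf2 was higher in library 1 while Gsdmd was higher in library 2, and any link between these levels was not tested.

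Downstream of the interleukin 1 receptor, all 17 signalling genes reached 1 TPM in both libraries, although Il1r1 itself was not. These adaptors and kinases also serve Toll-like receptors. Nfkb1 stood at 44.9 and 52.3 TPM, and was called higher in library 2 with a log2 ratio of 0.17. Ikbkb, a kinase of the NF-kB inhibitor, stood at 41.0 and 40.7 TPM, Tab2 at 29.8 and 28.8 TPM and Chuk at 20.6 and 19.4 TPM. In total 2 were called higher in library 2, 9 were called higher in library 1 and 6 were not called. The number of calls was near the 65.6% over all tested genes, of which 33.1% were higher in library 2 and 32.6% in library 1. Most calls of the list were thus higher in library 1, and the median log2 ratio was -0.11. The largest called differences were in the kinase Irak1 (-0.46), in Tab1 (-0.45) and in the ubiquitin ligase Peli1 (-0.35).

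Among 16 known response genes of interleukin 1 and NF-kB, 14 were tested, 9 were called higher in library 2, 2 were called higher in library 1 and 3 were not called. Over all tested genes the shares called were 33.1% in the direction of library 2 and 32.6% in that of library 1. The median log2 ratio of the list was 0.31, and by the exact test of edgeR at a BCV of 0.1, 3 remained called, 2 of them higher in library 2. The chemokine gene Ccl3 led at 45.6 and 60.9 TPM (log2 ratio 0.32), with Nfkbia, the inhibitor of NF-kB, at 13.1 and 17.2 TPM (0.32), Ccl4 at 8.98 and 14.1 TPM (0.55) and Nfkbiz at 8.13 and 8.57 TPM (0.01, not called). The neutrophil chemokine gene Cxcl2 had the largest difference, 1.53 TPM in library 1 and 11.4 TPM in library 2, a log2 ratio of 2.82. Ptgs2, the inducible cyclooxygenase, stood at 0.53 and 1.62 TPM (1.55), and Zc3h12a, an RNase that degrades inflammatory transcripts, at 1.47 and 1.08 TPM (-0.76). Cxcl2, Ptgs2 and Zc3h12a were the genes that remained called in that test. Il1b, often counted among these response genes, was not called in the same comparison, and the part of the response genes' differences in the levels of Pycard, Casp1, Casp4 and Gsdmd was not tested.

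**Figure D4:**
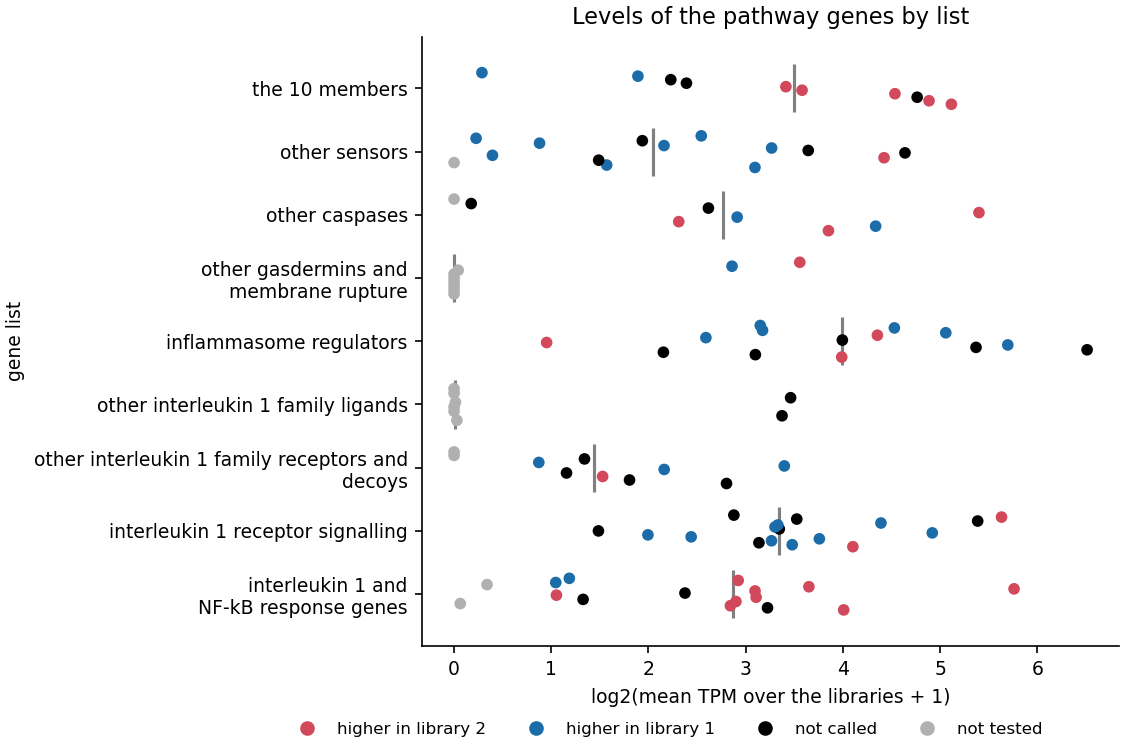
Level of every gene in the 10-gene group and in 8 lists of other pathway genes, as log2 of the mean TPM over the libraries plus 1, with points coloured by the exact binomial call and grey lines at each list median. The gasdermin and ligand lists sit mostly at 0, and 9 of the 14 tested response genes are red.

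Over all 8 lists, 96 of 98 genes were matched, 69 reached 1 TPM in both libraries and 77 were tested. Of those, 20 were called higher in library 2, 31 were called higher in library 1 and 26 were not called, with a median log2 ratio of -0.05. The 51 called of 77 are near the 65.6% called over all tested genes, of which 33.1% were higher in library 2 and 32.6% in library 1. By the exact test of edgeR at a BCV of 0.1, 7 were called, 3 higher in library 2 and 4 higher in library 1, a share below the 12.9% over all tested genes.

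Upstream sequence was searched for 9 of the 10 genes, in 12 windows of 250 bases from the RefSeq promoter table (GRCm38.p6), on both strands, for 7 words. The C/EBP word TTGCNNAA was found upstream of Il1r1, Nlrc4 and Pycard and in 9.57% of all 32817 windows. The PU.1 word GAGGAAGT was found upstream of Aim2 and Pycard and in 2.44% of all windows, and TATAAA was found upstream of Il18 and Il1b and in 12.4%. The RefSeq start used for Aim2 lies 34750 bases from the annotated start of Aim2-204, its most abundant transcript. It lies 6 bases from that of the incomplete model Aim2-205. No member window held the NF-kB word, which is GGGA, any 2 bases and TTCC (1.21% of all windows), the interferon regulatory factor word, which is GAAA, any 2 bases and GAAA (2.97%), the STAT word TTCNNNGAA (7.01%) or the AP-1 word TGANTCA (6.75%). No match overlapped another. The absence of a word says only that these letters are not in these windows.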

How the data were processed

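Total RNA of 2 libraries was analysed from the authors' deposited gene and transcript tables. The deposited expected counts are estimated reads per gene or transcript and are not normalized. The deposited TPM values are scaled by length over all rows of a table, and the posterior mean TPM is also the authors'. The deposited interval bounds, whose level is not stated, were treated as signal values. The deposited percent values give the share of the TPM of a gene held by each transcript. The build is mm10 with GENCODE M4, per the text deposited with each library. No aligner, quantifier, version or use of strand is given in the sources used here. Symbols, types and coordinates came from GENCODE M21 (same build) by gene ID without version, and 42462 of 43346 mouse IDs matched. Il36a, Il36b, Il36g and Il36rn were matched through older symbols in the RefSeq gene table. Gbp5 and Irgb10 were not analysed here. Library fragments spanned 221 to 1000 nucleotides in library 1 and 200 to 1000 in library 2, per the labels.

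Expected counts were rounded and scaled by TMM in edgeR 4.0.16 (R 4.3.3). Genes whose mean count reached 10 were compared by a two-sided exact binomial test in scipy 1.17.1, adjusted by Benjamini-Hochberg at 0.05. With 1 group there is no contrast between conditions, and the test compares these libraries. It was run on simulated counts with counting error alone, which cannot show how it behaves where libraries vary by more. Alternatives were size factors of DESeq2 1.42.0, scaling by summed counts, other count minimums, the exact test of edgeR at an assumed or estimated BCV, a 2-fold minimum, other TPM thresholds, posterior means and each library alone. For genes at 0, 3 counts were taken as the limit, and the deposited upper bound of TPM can lie higher. Intervals and limits hold counting error alone, because the libraries carry no stated molecular identifiers and PCR copies may be counted as separate reads. Neighbours in the order of levels were set apart where the lowest library of the higher gene exceeded the highest library of the next. Named pathway genes are, per list, up to 4 with the highest mean TPM, those with 0 counts and up to 3 with the largest called log2 ratio at a mean count of 100 or more. A few genes within this rule are left unnamed here but stay in their list totals. Named transcripts hold 10% or more in either library. The 10 genes and the lists were chosen with earlier results of these data known.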

Additional observations from a re-analysis of the deposited data

How the results depend on the processing

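The number of members called different between the libraries was 7 under every other scaling and count minimum, with the same 7 genes. It fell to 2 with the exact test of edgeR at a BCV of 0.1, to 1 at the common BCV and to 1 when a 2-fold ratio was also required. Of the other pathway genes, 51 were called, and 7, 1 and 2 under the same settings. The log2 ratio of each member kept its direction and its side of the threshold under all 50 scaling and count-minimum alternatives. Rescaling TPM to nuclear protein-coding genes moved all 10 levels, for example Pycard to 132 TPM and Il1r1 to 0.899 TPM. The posterior mean moved Il1b to 4.40 TPM, the coding share of Casp4 to 78.0% and that of Il1r1 to 79.3%. Other scalings left the share of calls higher in library 2 between 47.3% and 51.1%, where it was 50.4%. With library 1 or library 2 left out, 9 members reached 1 TPM, as did 71 and 70 other pathway genes, where 69 did in both. The comparison between the libraries needs both, so it could not be repeated with either left out. No paired analysis was possible because all samples belong to 1 group. Depth limits Il1r1 (168 and 42 counts), Il18 (168 and 102) and the rarer transcripts of Casp4 and Aim2.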
